A study of Mus musculus with 32 samples.

Results

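Brown fat of mice killed late in the dark, active phase, at Zeitgeber time (ZT) 21, was compared with brown fat of mice killed late in the light, resting phase, at ZT9. The comparison used the 4 mice labelled ZT21 and the 4 labelled ZT9, 8 of the 32 libraries, picked by the time in their labels and by no measured value. ZT counts hours from lights on, so the compared times lie 12 h apart. The tissue was interscapular brown adipose tissue (iBAT), the fat pad between the shoulder blades that burns lipid to make heat. All mice were wild type C57BL/6J males of 10 weeks, not fasted and with chow at will. They were housed under equal light and dark and in mild cold. Time of day was the only condition varied among them, and the sequencing lane differed with it. The study asked how lipid handling by this tissue changes over the day, and it sequenced 1 stranded RNA library per mouse from 4 mice at each of 8 times spaced 3 h apart. A library holds all cell types of the pad, and in such bulk tissue fewer cells of a type and less RNA per cell cannot be told apart. P-values measure the spread between these mice.

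Brown adipocytes carry a molecular clock. The transcription factors BMAL1 (gene Arntl) and CLOCK, or NPAS2 in place of CLOCK, bind E-box motifs and switch on their own repressors, the Period and Cryptochrome genes, and the nuclear receptors REV-ERBα and REV-ERBβ (genes Nr1d1 and Nr1d2). REV-ERBs and RORs compete at ROR elements, through which Arntl is controlled, and the factors DBP, TEF and HLF against NFIL3 act at D-box motifs. Brown fat takes up fatty acids freed by lipoprotein lipase from circulating triglycerides, stores them in lipid droplets, makes fatty acids from glucose, and burns them with the help of the uncoupling protein UCP1.

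Total counts of the 8 libraries lay between 16648905 and 17988526. The ZT9 libraries were sequenced on lane 3 and the ZT21 libraries on lane 4, so that lane and time of day cannot be told apart in the direct contrast. All 15 markers of brown adipocytes were detected in all 8 and summed to 11576 to 16880 CPM, with Ucp1 between 1145 and 4318 CPM and Elovl3, a fatty acid elongase, lowest, at 0.941 CPM in 1 mouse and up to 64.1 CPM in another (CPM is a gene's count scaled to a common library size by TMM). Markers of skeletal muscle, which lies next to the pad, summed to 1707, 59.9, 81.8 and 1798 CPM in replicates 1 to 4 of ZT9 and to 2355, 214, 3017 and 87.1 CPM in those of ZT21. Thus 2 libraries of each time held over 1000 CPM of muscle markers, and these 4 are referred to as the libraries with muscle transcripts. At other times the sum reached 6898 CPM in 1 library, and libraries of other times stayed in the fits that leave these 4 out. Replicate 2 of ZT21 held some too, with Myh4, a myosin of fast muscle, at 40.5 CPM against 0.811 CPM in replicate 2 of ZT9. None of the 14 muscle markers passed the test. Replicate 3 of ZT9 stood apart: its 12 macrophage markers summed to 374 CPM against 79.0 to 139 CPM in the other 7, and its blood (1138 CPM) and fibroblast (495 CPM) markers were also the highest of all 32 libraries.

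Of 15505 genes tested, 1492 passed the threshold between ZT21 and ZT9 (9.62%, edgeR's quasi-likelihood test, Benjamini-Hochberg adjusted p under 0.05). At ZT21 699 genes were higher (4.51%) and 793 lower (5.11%), and the median log2 difference over all tested genes was 0.00. Most called differences were small, with a median of 1.40-fold. 594 called genes differed by more than 1.5-fold, 268 by more than 2-fold and 58 by more than 4-fold. The mice of ZT9 and ZT21 did not overlap in CPM in 2210 genes (14.3% of those tested), among them 1192 of the called genes.

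The count depended on the libraries. Without replicate 4 of ZT21 953 genes were called, the lowest of the 8 counts with 1 mouse left out, and without replicate 3 of ZT9 1208 were called. Without the 4 libraries that carried muscle transcripts, which leaves 2 mice per time, 414 genes were called, 143 of them higher at ZT21. With all libraries and the muscle markers as a covariate 1645 genes were called (772 higher, 873 lower), 1459 of the 1492 and all 24 of the most extreme genes described below among them. With the macrophage markers as a covariate 1517 were called (700 higher, 817 lower), among them 1118 of the 1492 and 20 of the 24. Fewer mice and the loss of the muscle-bearing libraries cannot be told apart in a call lost on leaving those 4 out. Of the 1492 genes, 359 were among the 414 called without those 4 libraries and 618 were called in each of the 8 fits with 1 mouse left out.

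**Figure D1:**
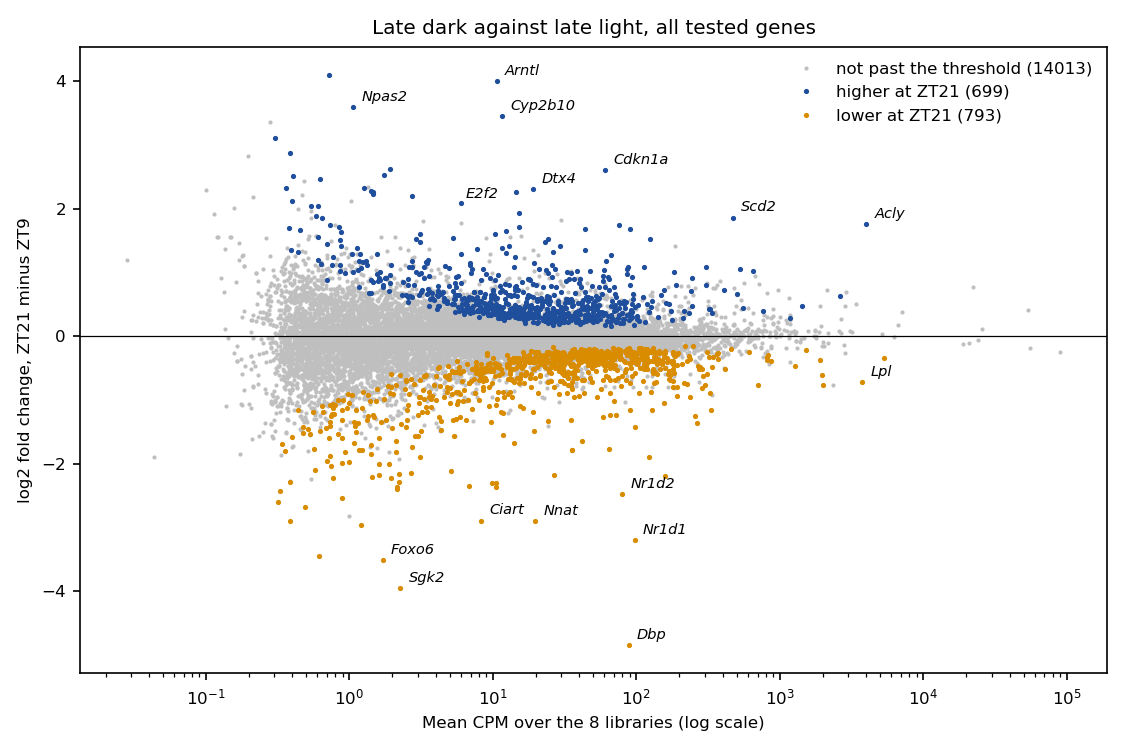
Each point is 1 tested gene, with its mean CPM over the 8 libraries on a log axis and its log2 fold change (ZT21 minus ZT9) on the vertical axis; blue marks the 699 genes called higher at ZT21, orange the 793 called lower. Dbp lies lowest among the labelled genes at -4.84 and Arntl highest at 4.00, while Acly and Lpl combine moderate changes with high means.

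Clock genes were called in large part. Of 5 activators of the clock, 4 rose and none fell at ZT21 (80.0% called, against 9.62% of all tested genes), with a median log2 difference of 0.97 over the 5. Arntl (chr7:113207465-113314126, GRCm38), which encodes BMAL1, was at 2.56, 0.984, 0.886 and 0.544 CPM in the ZT9 mice and at 14.2, 16.8, 21.5 and 27.6 CPM in the ZT21 mice. Every ZT21 mouse was far above every ZT9 mouse, and the log2 difference was 4.00 ± 0.30 (SE, n = 4 mice each, edgeR adjusted p = 5.93e-10).

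Npas2, the partner that can replace CLOCK, was almost silent at ZT9. It had 2, 4, 5 and 0 reads in the ZT9 mice against 35, 24, 44 and 37 reads in the ZT21 mice, a fitted log2 difference of 3.59 ± 0.47 (SE, edgeR adjusted p = 1.38e-05). The size of that difference rests on these few ZT9 reads. Clock moved less, from 44.9 ± 7.34 to 84.1 ± 8.78 CPM (SD, n = 4), without overlap of the mice.

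Of 10 clock repressors, 8 fell and 1 rose (90.0% called, against 9.62% of all tested genes), with a median log2 difference of -1.32. Nr1d1, encoding REV-ERBα, was at 142, 169, 205 and 188 CPM at ZT9 and at 19.1, 18.7, 15.1 and 23.5 CPM at ZT21. Its log2 difference was -3.20 ± 0.24 (SE, edgeR adjusted p = 5.93e-10), and its relative Nr1d2 differed by -2.47 ± 0.19 (SE). Ciart, a repressor of the BMAL1 complex, was at 12.2, 8.57, 17.6 and 19.5 CPM at ZT9 and at 1.36, 1.89, 1.84 and 2.70 CPM at ZT21. In none of these 3 genes did a ZT21 mouse reach the lowest ZT9 mouse.

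The Period genes fell in order of size from Per3 (log2 difference -1.89 ± 0.19, SE) over Per2 (-1.32 ± 0.23) to Per1 (-1.26 ± 0.30), an order whose neighbours Per2 and Per1 lay within their errors. In the cosine with lane Per2 had the other sign (0.40) and did not pass. In Per1 the ZT9 mice spread from 46.9 to 117 CPM, and the highest ZT21 mouse, at 44.0 CPM, lay just under them. The Cryptochromes, partners of the Period proteins, went apart. Cry1 was at 11.0, 11.4, 12.6 and 13.7 CPM at ZT9 and at 31.4, 33.2, 35.6 and 35.5 CPM at ZT21 (log2 difference 1.48 ± 0.15, SE, edgeR adjusted p = 1.85e-07), whereas Cry2 was lower at ZT21 by -0.68 ± 0.13 in log2 terms (SE, edgeR adjusted p = 0.00143). Bhlhe41, a repressor that competes for E-boxes, fell from 34.5 ± 14.5 to 13.7 ± 2.90 CPM (SD, n = 4), and the calls of Bhlhe41 and Per1 were lost without the 4 libraries with muscle transcripts (edgeR adjusted p = 0.165 and 0.155).

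Of 9 output factors of the clock, 6 fell and 1 rose (77.8% called, against 9.62% of all tested genes, median log2 difference -0.94). Dbp (chr7:45705088-45710203, GRCm38) had the lowest log2 difference of all tested genes, from 130, 138, 213 and 202 CPM in the ZT9 mice to 6.79, 7.81, 4.40 and 4.77 CPM in the ZT21 mice. This is a 28.7-fold difference (log2 -4.84 ± 0.27, SE, edgeR adjusted p = 1.43e-12). The related D-box activators followed with smaller falls, Hlf by -1.76 ± 0.16 and Tef by -1.36 ± 0.17 on the log2 scale (SE). Nfil3, which represses at the same D-boxes, was at 4.66, 6.60, 7.14 and 6.89 CPM at ZT9 and at 19.9, 26.2, 25.5 and 24.8 CPM at ZT21, so that the D-box activators and their competitor differed in opposite directions. Klf15, a factor of amino acid and lipid metabolism, fell from 55.7 ± 5.68 to 16.2 ± 3.74 CPM (SD, n = 4). The calls of Usp2, a deubiquitinase (log2 difference -0.94), and Klf9, a Krüppel-like factor (-0.35), lay near the threshold: they were lost in 3 and 6 of the 8 fits with 1 mouse left out, with adjusted p up to 0.0752 without replicate 4 of ZT9 and 0.109 without replicate 3 of ZT21 (edgeR).

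**Figure D2:**
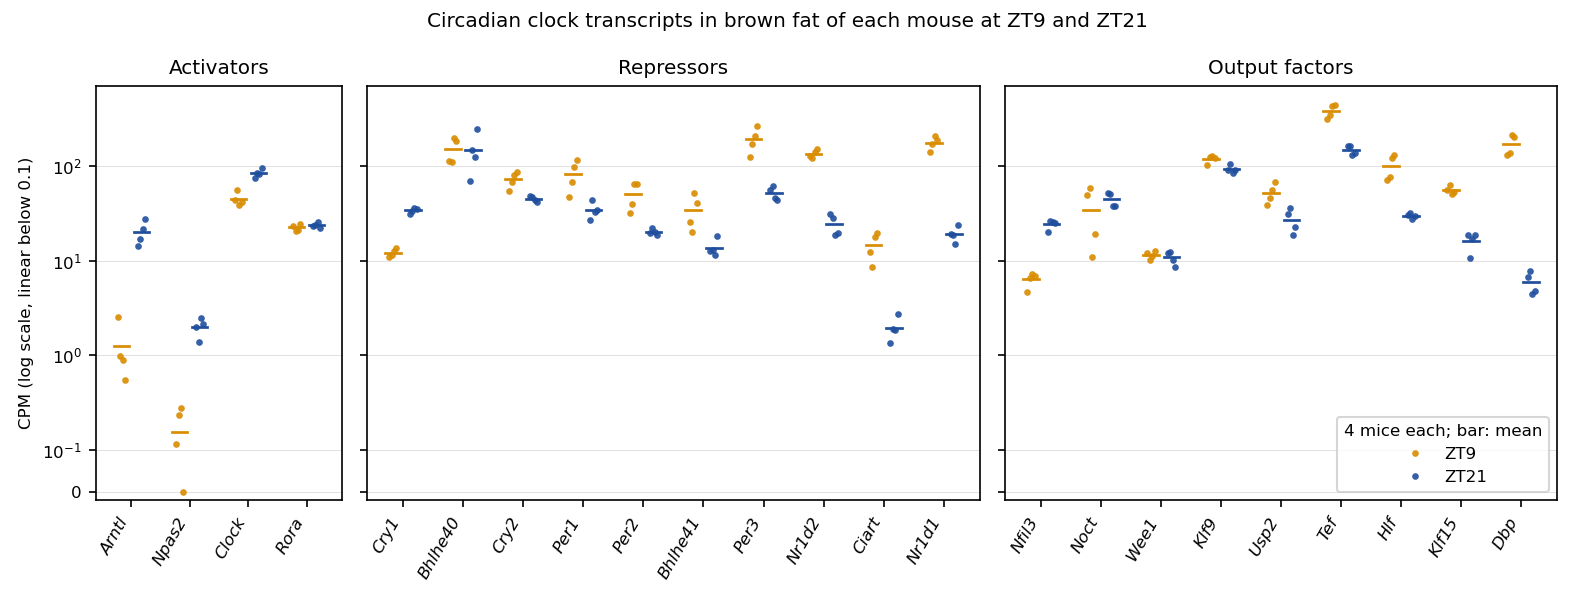
CPM of clock genes in each mouse (points, 4 per time) with the mean (bar), on an axis that is logarithmic above 0.1 and linear below; orange is ZT9, blue ZT21. Among the activators Arntl and Npas2 are separated most, and among the repressors and output factors Nr1d1, Ciart and Dbp fall most while Cry1 and Nfil3 rise.

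The promoters of the clock genes were searched for the motifs named above, on both strands from 250 bases before to 50 bases after each start of transcription (RefSeq, GRCm38.p6). The E-box was spelled CACGTG, the D-box TTATGTAA or TTACGTAA and the ROR element TAGGTCA or TGGGTCA, and no motif contains another. Of the 32851 promoters supplied, 7.15% held an E-box, 1.06% a D-box and 6.45% a ROR element. Promoters were supplied for 20 of the 24 clock members. An E-box was present in 6 of the 20 genes (Ciart, Klf15, Per1, Bhlhe41, Tef and Cry1), a D-box in Per3, and a ROR element in Arntl and Nfil3. Counted by promoter, the unit of the shares above, 7 of 25 held an E-box, 1 a D-box and 2 a ROR element. The sequences with several sites, and those of genes that were higher at ZT21, are given here 5′ to 3′ on the strand of the gene, with the motifs in capitals. A match in these letters is a description and says nothing of binding.

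Ciart, lower at ZT21, with 3 E-boxes at -116, -58 and -44 from the start, chr3:95882229-95882478, minus strand:
Ciart: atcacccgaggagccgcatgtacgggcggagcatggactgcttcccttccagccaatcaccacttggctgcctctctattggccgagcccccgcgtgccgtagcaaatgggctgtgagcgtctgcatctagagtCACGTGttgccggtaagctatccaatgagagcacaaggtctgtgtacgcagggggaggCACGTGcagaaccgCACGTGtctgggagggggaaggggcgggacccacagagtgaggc
Klf15, lower at ZT21, with 3 E-boxes, the last across the start, chr6:90462326-90462578, plus strand:
Klf15: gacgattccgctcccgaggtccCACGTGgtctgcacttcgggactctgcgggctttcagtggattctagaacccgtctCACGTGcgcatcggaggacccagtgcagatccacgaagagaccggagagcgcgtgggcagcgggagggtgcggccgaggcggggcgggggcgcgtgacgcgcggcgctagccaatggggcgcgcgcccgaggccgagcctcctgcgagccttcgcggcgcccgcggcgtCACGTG
Per3, lower at ZT21, with 2 D-boxes, chr4:151044666-151044915, minus strand:
Per3: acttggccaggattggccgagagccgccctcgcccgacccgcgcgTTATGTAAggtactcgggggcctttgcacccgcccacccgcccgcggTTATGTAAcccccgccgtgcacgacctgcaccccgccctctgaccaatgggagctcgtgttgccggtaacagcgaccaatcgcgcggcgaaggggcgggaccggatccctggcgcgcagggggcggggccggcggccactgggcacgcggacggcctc
Cry1, higher at ZT21, with 1 E-box, chr10:85185055-85185304, minus strand:
Cry1: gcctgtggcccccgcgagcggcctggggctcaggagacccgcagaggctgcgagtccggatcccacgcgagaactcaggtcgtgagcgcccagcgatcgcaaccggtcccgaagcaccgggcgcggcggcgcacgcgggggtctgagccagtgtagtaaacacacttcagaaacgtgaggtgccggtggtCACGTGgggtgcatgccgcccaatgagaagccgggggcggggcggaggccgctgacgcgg
Nfil3, higher at ZT21, with 1 ROR element read on the other strand, chr13:52981040-52981289, minus strand:
Nfil3: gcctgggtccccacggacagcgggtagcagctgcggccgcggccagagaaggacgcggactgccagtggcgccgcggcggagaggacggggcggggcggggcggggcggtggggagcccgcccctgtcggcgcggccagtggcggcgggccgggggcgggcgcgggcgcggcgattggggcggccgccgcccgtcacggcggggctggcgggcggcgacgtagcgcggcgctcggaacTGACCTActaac
Arntl, higher at ZT21, the 30 bases around the ROR element at 31 after the downstream of its starts, chr7:113207530-113207559, plus strand:
Arntl: aaggcagaaagTAGGTCAgggacggaggtg

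Both clock genes with a ROR element were higher at ZT21, of the 6 with an E-box 5 were lower and Cry1 was higher, and Dbp, Nr1d1 and Nr1d2 had no match to these letters in this window. Of all 20 clock members with a promoter, 13 were called lower and 5 higher, so most members were lower whatever their motifs.

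At each end of the log2 differences 12 genes were named, among called genes that averaged 1 CPM or more and whose mice did not overlap. Of these 24, 17 were called in every fit with 1 mouse left out and 14 without the 4 libraries with muscle transcripts. Beyond the clock, the highest 12 included Cdkn1a, Dtx4, E2f2 and Cyp2b10. Cdkn1a (chr17:29090976-29100727), the cell cycle inhibitor p21, was at 17.3, 24.7, 11.3 and 15.3 CPM at ZT9 and at 86.4, 105, 101 and 125 CPM at ZT21. Its log2 difference was 2.60 ± 0.24 (SE, edgeR adjusted p = 2.85e-08). Dtx4 (chr19:12466338-12501454), a ubiquitin ligase of the Deltex family, varied little within each time, with 6.29, 7.06, 7.31 and 5.14 CPM at ZT9 and 32.7, 30.0, 33.1 and 31.8 CPM at ZT21.

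E2f2, a factor that drives entry into the cell cycle, was at 4.66 to 5.50 CPM in the ZT9 mice and at 17.0 to 32.1 CPM in the ZT21 mice. Of a list of 23 tested cell cycle genes, to which E2f2 does not belong, none passed the edgeR test (against 9.62% of all tested genes), and their median log2 difference was -0.05. Cyp2b10, a cytochrome P450 of xenobiotic metabolism, was at 0.932, 2.49, 2.77 and 1.51 CPM at ZT9 against 34.9, 20.5, 8.91 and 20.5 CPM at ZT21 (log2 difference 3.45 ± 0.62, SE, edgeR adjusted p = 6.67e-04), a wide spread among the ZT21 mice.

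The other genes of the highest 12, Kcng4, Lonrf3, Gm10642, Prrt4, Phyhip and Ngef, lay under 6 CPM in every mouse, with log2 differences of 2.23 to 2.62. Of these, Kcng4, Prrt4 and Phyhip lost the call in 4, 3 and 4 of the 8 fits with 1 mouse left out (highest edgeR adjusted p = 0.0859, 0.0822 and 0.0710, without replicate 4 of ZT9, replicate 2 of ZT21 and replicate 4 of ZT9). Gm10642 shares 56.0% of its exonic bases with another gene on either strand, and whether counting used the strand was not given in the sources used here, so its count is uncertain.

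Of the 12 genes with the lowest differences, those outside the clock were Sgk2, Foxo6, Nnat, Pik3ap1, Slc7a8, Chrna2, Slc7a10 and Tlr1. Foxo6, a forkhead factor, had 19, 18, 90 and 90 reads at ZT9 and 7, 7, 4 and 1 reads at ZT21 (log2 difference -3.51 ± 0.73, SE, edgeR adjusted p = 0.00304). Nnat, neuronatin, an imprinted gene of the endoplasmic reticulum, was at 32.3, 20.3, 53.7 and 32.4 CPM at ZT9 and at 7.81, 6.26, 2.28 and 2.24 CPM at ZT21. Slc7a10, a transporter of small neutral amino acids, was at 27.3, 18.2, 9.52 and 10.9 CPM against 3.91, 3.27, 3.95 and 2.24 CPM. Nnat and Slc7a10 are also 2 of the 6 tested markers of white adipocytes, and the 6 together summed to 248 ± 86.0 CPM at ZT9 and 129 ± 32.8 CPM at ZT21 (SD, n = 4, exact permutation test, two-sided, p = 0.0571, 0.190 after Benjamini-Hochberg adjustment over the 10 marker sums). Their part in the falls was not tested.

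Chrna2, a nicotinic acetylcholine receptor subunit of fat cells, was at 5.12, 6.14, 1.11 and 2.12 CPM at ZT9 and at 0.963, 1.03, 0.445 and 0.345 CPM at ZT21. Sgk2, a kinase of the AGC family, had 45, 154, 53 and 44 reads at ZT9 and 5, 7, 6 and 1 reads at ZT21, and its call was lost without replicate 2 of ZT9 and without replicate 1 or 4 of ZT21 (edgeR adjusted p up to 0.0661).

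In Pik3ap1, an adaptor of phosphoinositide signalling in leukocytes, Tlr1, a Toll-like receptor, and Slc7a8, another amino acid transporter, replicate 3 of ZT9 was the highest mouse. Without it the adjusted p rose to 0.257, 0.236 and 0.0572 (edgeR) and the calls were lost. The sum of the macrophage markers was likewise highest in that mouse, and with that sum as a covariate the calls of Pik3ap1 (edgeR adjusted p = 0.147) and Tlr1 (0.198) were lost and that of Slc7a8 was kept (0.0414).

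Genes of lipid handling were grouped by their role. Of 16 genes of de novo lipogenesis, 2 rose and none fell (12.5% called, against 9.62% of all tested genes), neither call was kept in the cosine with lane described below, 15 had a positive log2 difference, and the median was 0.75 against 0.00 over all genes. Acly (chr11:100476353-100528000), which makes cytosolic acetyl-CoA from citrate, was at 3580, 1769, 820 and 1128 CPM at ZT9 and at 5454, 6797, 4777 and 7677 CPM at ZT21. The mice did not overlap, and the rise of 4352 CPM in the mean was the largest of all called genes, yet the log2 difference of 1.76 ± 0.52 (SE, edgeR adjusted p = 0.0295) lost its call without any of replicates 2 or 4 of ZT21 or replicates 2, 3 or 4 of ZT9, with adjusted p up to 0.0943.

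Scd2, a stearoyl-CoA desaturase, was at 292, 184, 175 and 168 CPM at ZT9 and at 540, 977, 640 and 808 CPM at ZT21 (log2 difference 1.86 ± 0.45, SE, edgeR adjusted p = 0.00936). Its call was kept in each fit with 1 mouse left out and lost without the 4 libraries with muscle transcripts (edgeR adjusted p = 0.0622). Fasn, fatty acid synthase, did not pass the test. It was at 29066, 20136, 4413 and 11624 CPM in the ZT9 mice and at 24417, 31999, 22010 and 32884 CPM in the ZT21 mice, so that 1 ZT9 mouse lay within the ZT21 range and the other 3 below it (log2 difference 0.77 ± 0.48, SE, edgeR adjusted p = 0.341). In Acly, Scd2 and Fasn alike replicate 1 of ZT9 was the highest ZT9 mouse.

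Of 14 genes of the lipoprotein lipase pathway and lipid uptake, 5 fell and none rose (35.7% called, against 9.62% of all tested genes, median log2 difference -0.08). Lpl (chr8:68880491-68907448), the lipase itself, was at 5408, 4998, 4023 and 4334 CPM at ZT9 and at 2959, 2939, 2629 and 2859 CPM at ZT21. The ZT21 mice were nearly equal and all lay below the lowest ZT9 mouse (log2 difference -0.72 ± 0.12, SE, edgeR adjusted p = 3.84e-04), but without the 4 libraries with muscle transcripts Lpl did not pass at a log2 difference of -0.64 (edgeR adjusted p = 0.0523). Slc27a1, a fatty acid transport protein, and Lrp1, a receptor for lipoprotein remnants, fell by -0.75 ± 0.13 and -0.81 ± 0.17 on the log2 scale (SE). Of the 5 calls only that of Slc27a1 was kept in the cosine with lane. Pltp and Lmf1, a phospholipid transfer protein and the factor that matures the lipase, fell by -0.42 and -0.32 on the log2 scale, and each lost its call in 2 of the 8 fits with 1 mouse left out, without replicate 2 or 3 of ZT21 for Pltp and without replicate 3 of ZT21 or replicate 2 of ZT9 for Lmf1.

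The inhibitors of the lipase did not pass. Angptl4 was at 162, 321, 144 and 139 CPM at ZT9 and at 430, 313, 354 and 201 CPM at ZT21 (log2 difference 0.76 ± 0.44, SE, edgeR adjusted p = 0.297). Angptl8, which acts together with other angiopoietin-like proteins, was at 33.1, 22.2, 14.2 and 22.5 CPM at ZT9 and at 31.9, 57.0, 30.6 and 69.0 CPM at ZT21 (1.03 ± 0.46, SE, edgeR adjusted p = 0.158). In both genes 1 ZT9 mouse reached into the ZT21 range.

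Of 13 tested genes of triglyceride synthesis, 5 fell and none rose (38.5% called, against 9.62% of all tested genes, median log2 difference -0.26). Gpat4, which adds the opening fatty acid to glycerol phosphate, was at 545, 544, 327 and 428 CPM at ZT9 and at 238, 183, 198 and 212 CPM at ZT21 (log2 difference -1.15 ± 0.17, SE, edgeR adjusted p = 5.26e-05). Its relative Gpat3 fell by -1.10 ± 0.22 (SE), at a lower level of 3.74 to 16.8 CPM, with 37.4% of its exonic bases shared with other genes. Dgat2, which adds the last fatty acid, was at 1861, 2419, 2557 and 2669 CPM at ZT9 and at 1703, 1642, 1495 and 1444 CPM at ZT21. Agpat1 differed by -0.34 ± 0.08, and Dgat1 (-0.44 ± 0.14) lost its call in 5 of the 8 fits with 1 mouse left out, up to an adjusted p of 0.139 without replicate 2 of ZT9 (edgeR).

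Of 11 lipid droplet proteins, 3 fell and none rose (27.3% called, against 9.62% of all tested genes, median -0.18), and none of the 3 was called without the 4 libraries with muscle transcripts. Cidec, which fuses lipid droplets, was at 866, 946, 835 and 888 CPM at ZT9 and at 550, 569, 438 and 514 CPM at ZT21 (log2 difference -0.77 ± 0.14, SE, edgeR adjusted p = 5.52e-04), and did not pass without the 4 libraries with muscle transcripts (0.0531). Cideb fell by -1.06 ± 0.26 (SE), and 76.3% of its exonic bases are shared with other genes. Of 12 lipolysis genes, 2 fell and 1 rose (25.0% called, against 9.62% of all tested genes), and all 3 lost the call in some fit with 1 mouse left out. None of the 3 calls was kept in the cosine with lane or without the 4 libraries with muscle transcripts. Among them Prkar2b, a regulatory subunit of protein kinase A, was at 1145 to 1707 CPM at ZT9 and at 1062 to 1087 CPM at ZT21, the ZT21 mice being almost equal (log2 difference -0.46 ± 0.13, SE, edgeR adjusted p = 0.0226, and up to 0.0714 without replicate 1 of ZT9).

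Of 27 genes of fatty acid oxidation, 4 fell and none rose (14.8% called, against 9.62% of all tested genes, median -0.07). Acsl1, which activates fatty acids as acyl-CoA, was at 3039, 3086, 1738 and 2189 CPM at ZT9 and at 1547, 1373, 1449 and 1573 CPM at ZT21 (log2 difference -0.76 ± 0.16, SE, edgeR adjusted p = 0.00323), and its call was lost without the 4 libraries with muscle transcripts (edgeR adjusted p = 0.0992). Cpt1a, the liver form of the carnitine acyltransferase that readies fatty acids for entry into mitochondria, was lower in level and even among mice. It was at 22.0 ± 1.47 CPM at ZT9 and 14.1 ± 1.32 CPM at ZT21 (SD, n = 4, edgeR adjusted p = 1.20e-04). Slc27a2, a very long chain acyl-CoA synthetase, fell by -1.15 ± 0.24 on the log2 scale (SE). Acot1, a thioesterase, fell by -2.15 ± 0.65 with overlapping mice and lost its call in 6 of the 8 fits with 1 mouse left out (adjusted p up to 0.125 without replicate 2 of ZT9, edgeR).

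Of 16 tested thermogenic genes, 2 fell, the nuclear receptors Esrrg (log2 difference -0.70 ± 0.15, SE) and Esrra (-0.38 ± 0.09, SE), and none rose (12.5% called, against 9.62% of all tested genes, median -0.21). Both calls were lost without the 4 libraries with muscle transcripts (edgeR adjusted p = 0.220 and 0.0762), and neither was kept in the cosine with lane. Ucp1 itself was at 2658, 4318, 2057 and 2858 CPM at ZT9 and at 1652, 2309, 1145 and 1921 CPM at ZT21, with overlapping mice, and did not pass (log2 difference -0.76 ± 0.28, SE, edgeR adjusted p = 0.0914). With the macrophage markers as a covariate, chosen after the values were seen, Ucp1 passed (edgeR adjusted p = 0.00386).

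**Figure D3:**
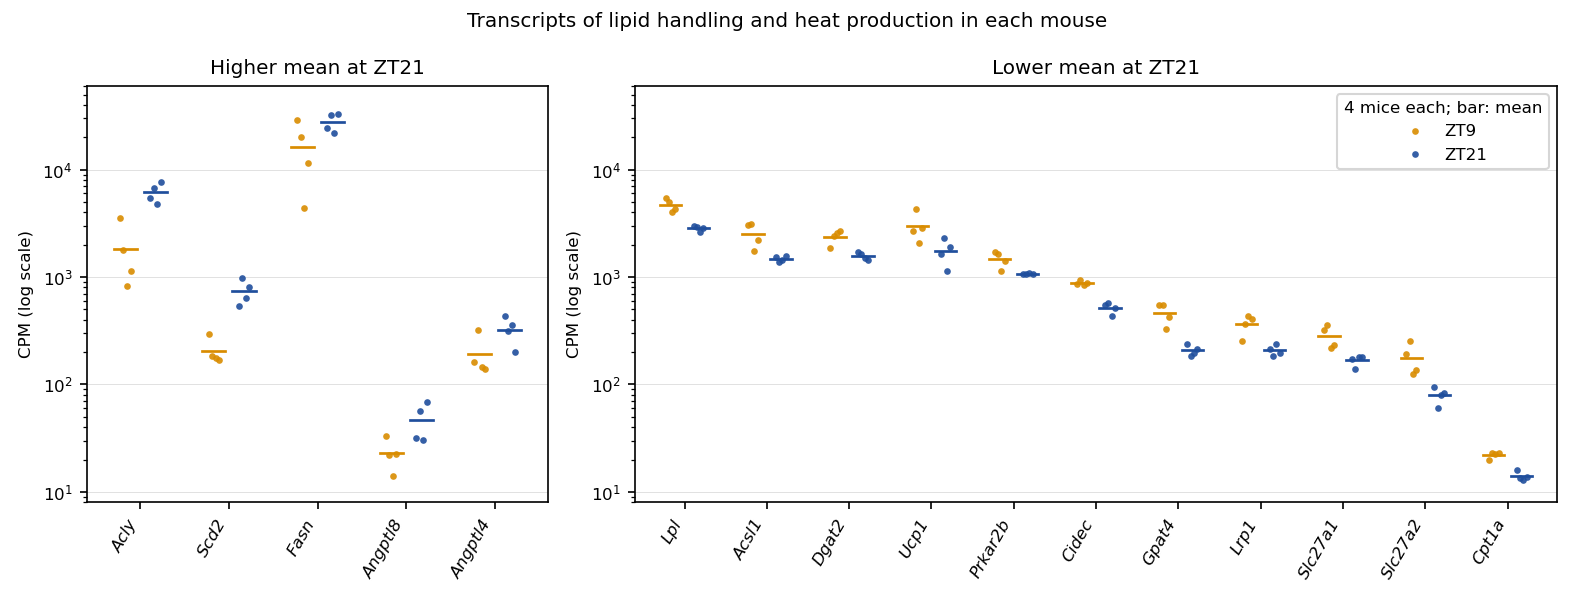
CPM on log axes of genes of lipid synthesis and lipase inhibition (left) and of lipid uptake, storage, oxidation and heat production (right) in each mouse (points, 4 per time, bar at the mean); orange is ZT9 and blue ZT21. Fasn spreads from 4413 to 29066 CPM within ZT9, while Lpl at ZT21 keeps to 2629 to 2959 CPM.

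Of 13 genes of glycogen metabolism, 4 rose and 2 fell (46.2% called, against 9.62% of all tested genes, median log2 difference 0.33). Ppp1r3c, which targets protein phosphatase 1 to glycogen, was at 92.1, 46.3, 81.7 and 71.0 CPM at ZT9 and at 119, 156, 142 and 203 CPM at ZT21 (log2 difference 1.09 ± 0.25, SE, edgeR adjusted p = 0.00694). Gys1, glycogen synthase itself, went the other way, from 335 ± 33.8 to 236 ± 12.6 CPM (SD, n = 4, edgeR adjusted p = 3.99e-04, and 0.0969 without the 4 libraries with muscle transcripts), as did Pygb, a glycogen phosphorylase, by -0.43 ± 0.10 on the log2 scale (SE). Ppp1r3b and Ugp2, which also rose, lost their calls in 5 fits each with 1 mouse left out, with adjusted p up to 0.140 without replicate 4 of ZT21 and 0.0796 without replicate 3 of ZT9 (edgeR).

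Of 28 genes of glucose uptake and glycolysis, 1 rose and 1 fell (7.14% called, against 9.62% of all tested genes), while 21 had a positive log2 difference (median 0.23). Pfkp, the platelet form of phosphofructokinase, was at 84.6, 76.0, 51.6 and 53.1 CPM at ZT9 and at 102, 118, 102 and 141 CPM at ZT21, and neither it nor the gene that fell was called in the cosine with lane. Of 18 genes of insulin signalling, 3 fell and none rose (16.7% called, against 9.62% of all tested genes, median -0.06). Akt1, a kinase of that pathway, fell from 118 ± 13.4 to 78.7 ± 7.21 CPM (SD, n = 4, edgeR adjusted p = 2.79e-04), and the calls of Akt2 and Foxo1 were lost in 2 and 5 fits with 1 mouse left out, up to 0.0657 without replicate 2 and 0.128 without replicate 3 of ZT9 (edgeR adjusted p).

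Of 11 genes of NAD synthesis and the sirtuins, 3 rose and 1 fell (36.4% called, against 9.62% of all tested genes, median 0.12). Nampt, the rate-limiting enzyme of NAD salvage and a known target of the clock, was at 441, 377, 354 and 376 CPM at ZT9 and at 596, 650, 566 and 641 CPM at ZT21 (log2 difference 0.66 ± 0.12, SE, edgeR adjusted p = 0.00111). Nmnat1, which acts after Nampt, rose by 0.63 ± 0.14 (SE), and Sirt4, a mitochondrial sirtuin, by 0.37 ± 0.07 (SE). Of the 4 calls only that of Nampt was kept in the cosine with lane. Sirt3, the main mitochondrial deacetylase, had 82.6 ± 8.15 CPM at ZT9 and 71.6 ± 1.73 CPM at ZT21 (SD, n = 4), a call lost in 6 fits with 1 mouse left out (up to 0.152 without replicate 2 of ZT9, edgeR adjusted p).

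Of 14 tested members of a list on the glucocorticoid receptor and its targets, 2 rose and 5 fell (7 of 14 called, against 9.62% of all tested genes, median -0.25), and 1 of the 7 was called without the 4 libraries with muscle transcripts. Besides Cdkn1a, Per1 and Klf9, given above, the metallothionein Mt1 fell from 85.9 ± 22.3 to 46.2 ± 2.72 CPM (SD, n = 4, edgeR adjusted p = 5.73e-04, and 0.0526 without the 4 libraries with muscle transcripts). Zbtb16, a zinc finger factor, was at 13.3, 12.8, 43.2 and 14.3 CPM at ZT9 and at 91.6, 54.6, 84.3 and 39.0 CPM at ZT21, with 1 mouse of each time overlapping, and its call was lost in 5 fits with 1 mouse left out (up to 0.0731 without replicate 4 of ZT9, edgeR adjusted p). The list did not move one way.

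Cytosolic chaperones were called in 1 direction. Of 19 heat-shock genes, 8 rose and none fell (42.1% called, against 9.62% of all tested genes), and the median log2 difference was 0.40. Hspa8, the constitutive HSP70, was at 207, 238, 225 and 225 CPM at ZT9 and at 331, 489, 348 and 395 CPM at ZT21 (log2 difference 0.81 ± 0.19, SE, edgeR adjusted p = 0.00635). Hsph1, an HSP110, rose by 1.42 ± 0.33, Hsp90aa1, the inducible HSP90, by 1.09 ± 0.27, and their co-chaperone Stip1 by 0.78 ± 0.18 on the log2 scale (SE).

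None of the 8 was called without the 4 libraries with muscle transcripts (edgeR adjusted p from 0.0622 for Hspa8 to 0.103 for Stip1 among the 4 genes above), whereas with the muscle markers as a covariate these 4 were called (0.00408 to 0.00790). Their log2 differences without those libraries, 0.93 for Hspa8, 1.67 for Hsph1, 1.22 for Hsp90aa1 and 0.81 for Stip1, were as large as with all mice. Hspa4l and Hspb1 also lost the call without single mice, Hspa4l without replicate 3 or 4 of ZT9 and Hspb1 without replicate 2 of ZT21. The chaperones of the endoplasmic reticulum had 3 of 21 lower (14.3% called, against 9.62% of all tested genes) and none higher, with a median of -0.14. These were Canx, Hsp90b1 and Pdia3, with log2 differences of -0.34, -0.26 and -0.24 that turned to 0.05, 0.16 and 0.18 in the cosine with lane, where none passed. Hsp90b1 lost its call without replicate 2 or 4 of ZT21 and with scaling by library size alone.

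Among 30 tested splicing factors of the SR and hnRNP families, 4 rose and 1 fell (16.7% called, against 9.62% of all tested genes, median 0.04), all by less than 1.5-fold. Hnrnpk, an RNA-binding protein, varied little among mice, with 162, 157, 158 and 161 CPM at ZT9 and 123, 122, 129 and 125 CPM at ZT21 (log2 difference -0.35 ± 0.06, SE, edgeR adjusted p = 2.86e-04). Hnrnpr rose by 0.31 ± 0.07 and Hnrnpdl by 0.32 ± 0.07 (SE). None of the 5 calls was kept in the cosine with lane, where the differences of Hnrnpk (0.07) and Hnrnpdl (-0.24) had the other sign, as had that of Srsf3. Of 28 genes of autophagy and mitophagy, 3 fell and 1 rose (14.3% called, against 9.62% of all tested genes, median -0.05). None of the 4 was called in the cosine with lane or without the 4 libraries with muscle transcripts. Among them were Gabarapl1, which binds autophagosome membranes, at 131 ± 10.6 CPM at ZT9 and 92.9 ± 8.50 CPM at ZT21, and Map1lc3b, its relative, at 151 ± 12.7 and 121 ± 8.85 CPM (SD, n = 4).

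Few genes of the respiratory machinery passed the test. None of 18 genes of the tricarboxylic acid cycle, 37 nuclear genes of complex I or 13 mitochondrially encoded protein genes passed the test, with medians of 0.06, 0.08 and 0.11 (edgeR). Of 45 tested nuclear genes of complexes III to V 1 passed, of 83 cytosolic ribosomal protein genes 1, and of 76 mitochondrial ribosomal protein genes 3 (2.22%, 1.20% and 3.95%, against 9.62% of all tested genes). Mitochondrially encoded genes took 25.1% ± 3.22 of the counts at ZT9 and 22.5% ± 1.22 at ZT21 (SD, n = 4, exact permutation test, two-sided, p = 0.286, where 0.0286 is the smallest value possible). The mitochondrial ribosomal RNAs mt-Rnr1 and mt-Rnr2 took 0.324%, 0.334%, 0.312% and 0.333% at ZT9 and 0.425%, 0.575%, 0.452% and 0.470% at ZT21, a difference without overlap (exact permutation test, two-sided, p = 0.0286). Mt-Rnr2 passed the edgeR test at 0.63 ± 0.17 (SE, adjusted p = 0.0198) but not without replicate 2 of ZT21 (0.101) or replicate 3 of ZT9, and mt-Rnr1 (0.47 ± 0.15, SE, adjusted p = 0.0472) lost its call in 7 of the 8 fits with 1 mouse left out, up to 0.136 without replicate 3 of ZT9.

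The collagens of the matrix were called in 1 direction. Of 32 tested collagens, 6 fell and none rose (18.8% called, against 9.62% of all tested genes), with 25 of 32 differences negative and a median of -0.38. With the macrophage markers as a covariate 2 of the 6 were called. Col5a1 fell by -0.78 ± 0.17 in log2 terms (SE, edgeR adjusted p = 0.00457), and the calls of Col3a1, Col15a1, Col6a1, Col6a2 and Col6a3 were each lost in at least 1 fit with 1 mouse left out, with adjusted p of 0.0949 to 0.209 without replicate 3 of ZT9 in all but Col15a1 (0.0510 without replicate 4 of ZT21, edgeR). The 10 fibroblast markers summed to 323, 264, 495 and 331 CPM at ZT9 and to 308, 249, 337 and 196 CPM at ZT21 (exact permutation test, two-sided, p = 0.200), replicate 3 of ZT9 being highest. All 10 had a negative log2 difference (median -0.52), and none passed the test. Of the markers of immune cells, 1 of 12 for macrophages and 2 of 11 tested for lymphoid cells fell (8.33% and 18.2%, against 9.62% of all tested genes). The macrophage marker, Adgre1, was at 5.12, 2.43, 57.5 and 4.41 CPM at ZT9 and at 1.66 to 5.46 CPM at ZT21, and without replicate 3 of ZT9 its adjusted p was 0.849 (edgeR).

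**Figure D4:**
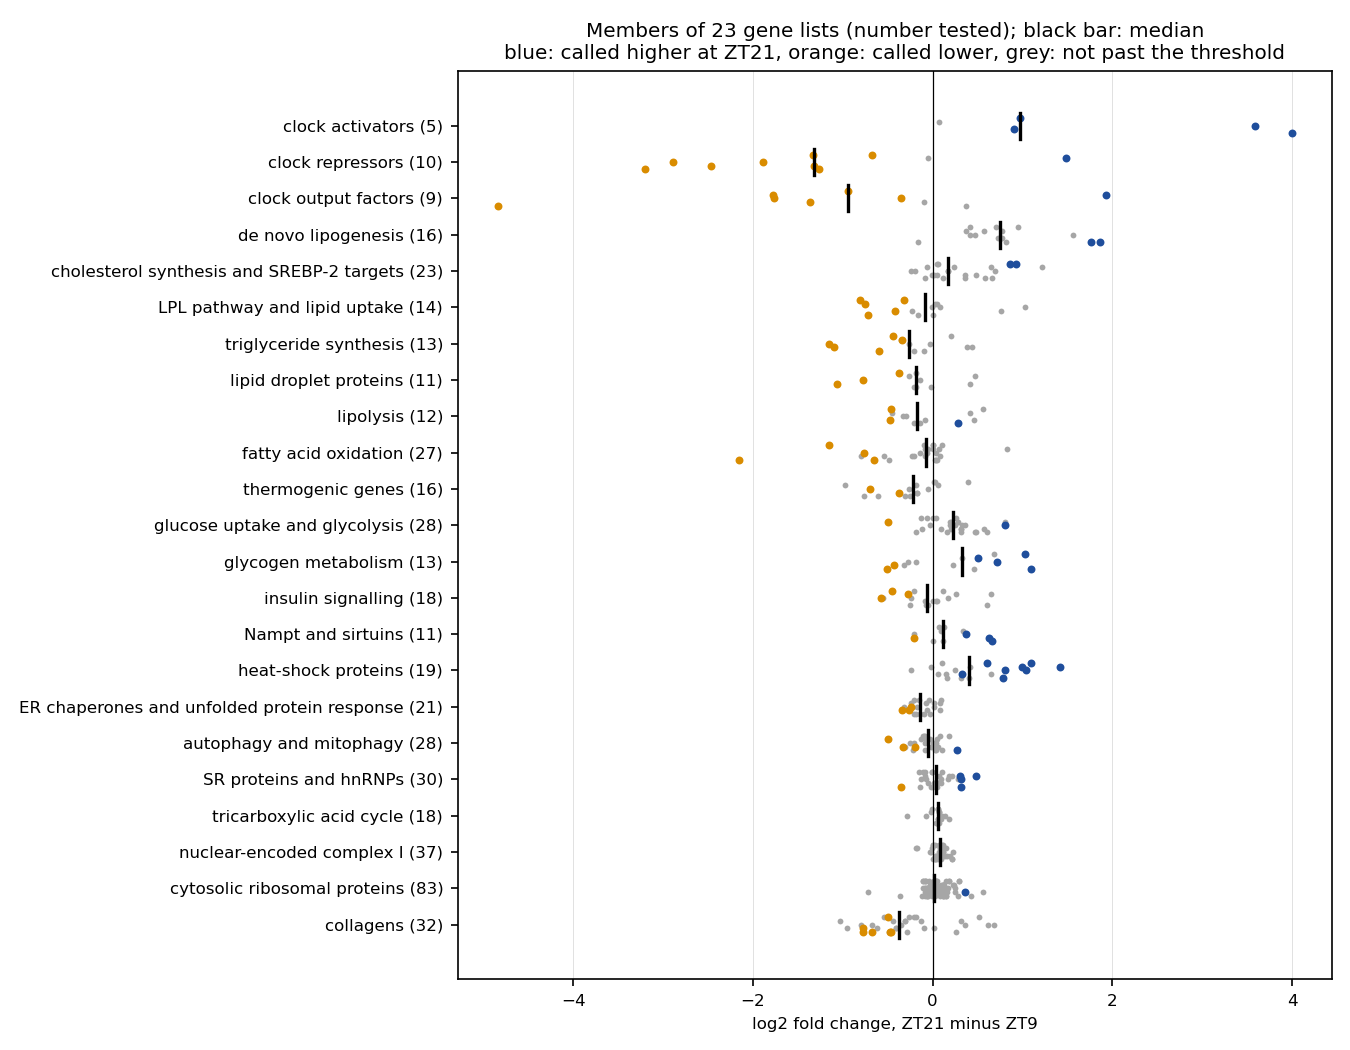
Log2 fold change (ZT21 minus ZT9) of every tested member of gene lists, 1 point per gene, with the list median as a black bar; blue points were called higher, orange lower and grey did not pass. The clock lists spread most, lipogenesis (median 0.75) lies to the right and the collagens (median -0.38) to the left, and the tricarboxylic acid cycle and complex I keep close to 0.

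The difference was set beside 2 other 12 h differences that use other mice, ZT18 minus ZT6 and ZT0 minus ZT12. The difference between ZT15 and ZT3 was not analysed here. ZT18 was sequenced on lane 4 and ZT6 on lane 2, so lane as well as time differed between the 2 contrasts. Between ZT21 minus ZT9 and ZT18 minus ZT6, 841 genes differed (5.42% of those tested, edgeR adjusted p under 0.05), and 9 of the 24 most extreme genes did. Those 24 were picked for their ZT21 minus ZT9 difference, so their share cannot be set against 5.42%. Without the 4 libraries with muscle transcripts, but with all libraries of ZT18 and ZT6, the count of 841 was 121. Npas2 was higher at ZT21 than at ZT9 (3.59) but had a negative difference of -1.61 between ZT18 and ZT6 (difference of the differences 5.19, adjusted p = 2.19e-05). Dtx4 (2.31 against 0.21), Cdkn1a (2.60 against 0.35) and Ciart (-2.89 against -0.53) likewise differed more between ZT21 and ZT9 (edgeR adjusted p of the difference 1.13e-06, 1.66e-04 and 8.42e-04). Lpl and Cidec were lower at ZT21 than at ZT9 by -0.72 and -0.77, against 0.14 and 0.31 for ZT18 minus ZT6 (edgeR adjusted p of the difference 0.00345 and 0.00131). Hspa8 had a smaller difference between ZT21 and ZT9, with 0.81 against 2.17 (edgeR adjusted p of the difference 0.00237).

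ZT0 minus ZT12 set lane 2 against lane 3, and ZT21 minus ZT9 lane 4 against lane 3, so lane and time cannot be told apart here either. Against ZT0 minus ZT12, 220 genes differed (1.42%), 2 of the 24 among them. These were Cdkn1a, with 2.60 against 1.29, and Nr1d1, with -3.20 against -1.76 (edgeR adjusted p of the difference 0.0342 and 0.0167). Dbp had -4.84 against -4.79 (adjusted p of the difference 0.974). Without the 4 libraries with muscle transcripts the count of 220 was 4. All libraries of ZT0 and ZT12 stayed in that fit, whatever their muscle markers.

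Steps of 3 h on the same lane share mice with the 12 h difference and are given side by side. Between ZT21 and ZT18, both on lane 4, 320 genes passed (2.06%, edgeR). Between ZT9 and ZT12, both on lane 3, none did (0%, edgeR, 1047 at an unadjusted p under 0.05). From ZT18 to ZT21 Cdkn1a rose from 36.8 to 104 CPM in the mean (edgeR adjusted p = 0.00164), Dtx4 rose by 0.90 and Npas2 by 2.29 on the log2 scale, while Per2 fell by -1.38 and Hspa8 by -1.04. Arntl (0.39), Dbp (-0.86), Lpl (-0.23) and Acly (0.08) did not pass in that step.

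A 24 h cosine over all 8 times is the only fit here in which lane can be a term. It gave 3911 genes that differ between ZT21 and ZT9 without lane (25.2%) and 1415 with lane (9.13%). Each lane held neighbouring times, so the lane term also takes up daily changes that depart from a cosine. Of the 1492 genes called directly, 1256 kept their sign with lane and 395 also passed, while 7 passed with the other sign. The 24 extreme genes were picked from the same libraries, so their share cannot be set against 9.13%. Among them 14 passed with lane, Dbp (-5.52), Arntl (3.57), Nr1d1 (-3.67), Cdkn1a (2.54), E2f2 (3.34) and Dtx4 (1.68) included.

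Foxo6 (-0.40), Nnat (-0.05), Slc7a10 (-0.57), Ngef (0.07) and Gm10642 (0.24) were among those that did not. Nor did Lpl (-0.12), Cidec (-0.08), Dgat2 (-0.15) or Acly (0.55), and Per2 changed sign (0.40). Gpat4, Cpt1a, Slc27a1, Slc27a2, Nampt, Ppp1r3c and all 8 heat-shock genes passed with lane and kept their direction. The 3 times on lane 3 (ZT9, ZT12 and ZT15) held the 3 highest means of Lpl, from 4486 to 4819 CPM, and the 5 times on lanes 2 and 4 had means of 2847 to 3340 CPM. Those 3 times are also neighbours in the day, so lane and time of day cannot be told apart in this pattern.

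**Figure D5:**
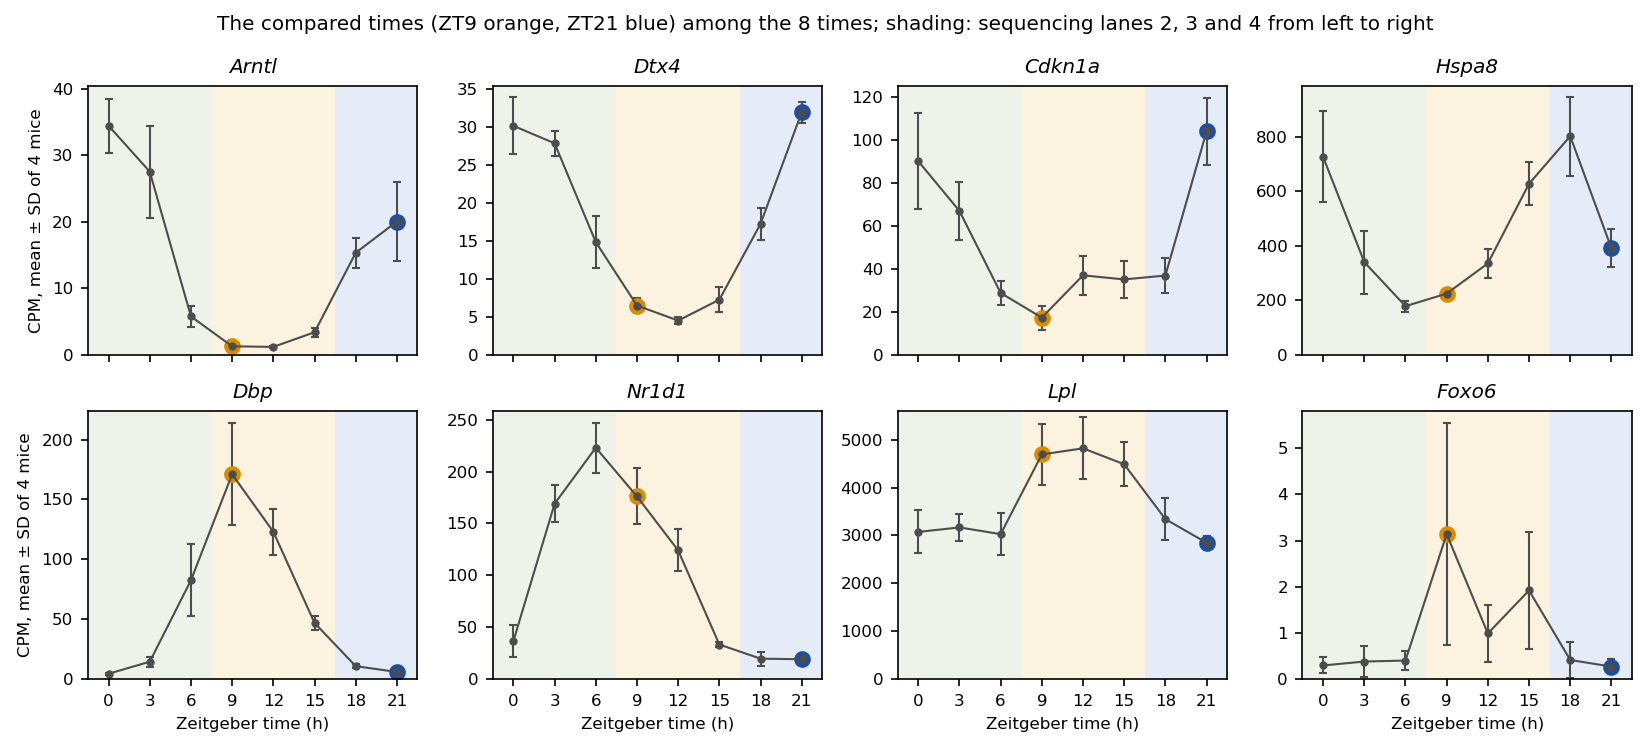
Mean ± SD of CPM over 4 mice at each of the 8 times for 8 genes, with the compared times enlarged (ZT9 orange, ZT21 blue) and the sequencing lanes 2, 3 and 4 shaded from left to right. Within lane 2 the mean of Arntl goes from 34.4 CPM at ZT0 to 5.72 CPM at ZT6 and that of Dbp from 4.46 to 82.5 CPM, whereas Lpl stays between 3027 and 3167 CPM there and is higher at the 3 times of lane 3. Lane 3 holds neighbouring times, so its lane and time of day cannot be told apart.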

How the data were processed

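Total RNA of 32 iBAT pads, 1 per mouse and 4 at each of 8 times, was sequenced on 3 lanes. According to the methods and the submitters' processing notes, the authors aligned reads to mm10 with GSNAP, counted them per gene with HTSeq (0.6.1) and used MultiQC. The deposited values are raw counts. Whether counting used the strand is not given in the sources used here. Groups came from the labels.

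Counts were filtered by expression per time point, scaled by TMM and fitted over all 32 libraries with edgeR 4.0.16 (quasi-likelihood test, R 4.3.3, limma 3.58.1) and the contrast ZT21 minus ZT9, Benjamini-Hochberg threshold 0.05. 15505 of 50686 genes were tested. Totals of the 8 libraries were 16648905 to 17988526. In simulated data with 15357 genes, 67.2% of 1.5-fold, 85.1% of 2-fold and 93.9% of 4-fold changes were recovered, and 5 unchanged genes were called. Only genes above 1 CPM were changed, and no lane or cell type differences between libraries were simulated, so recovery in the real data may differ. Alternatives included DESeq2 1.42.0, other scalings, no filter, left-out mice and a 24 h cosine. Exact permutation tests used SciPy 1.17.1 (Python 3.11.15). Named genes were the 12 highest and 12 lowest called genes among those averaging 1 CPM or more whose mice did not overlap, the 6 largest rises and 6 largest falls in CPM, and members of gene lists. Members and lists were chosen with earlier results of these data known. Coordinates are GRCm38. Some members of the lists are counted but not reported here by name.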

Additional observations from a re-analysis of the deposited data

Results flagged for a closer look

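In groups of 4 mice, 15 of 306 tested groups held a mouse far from the other 3 by Dixon's test, and chance flags about 1 in 20 groups. Replicate 3 of ZT9 accounted for 8 of them. It was high in Pik3ap1 (11.1 CPM), Tlr1 (9.41), Zbtb16 (43.2), Adgre1 (57.5), Pygb (183), Slc25a45 (5.92) and the summed macrophage markers (374), and low in Gys1 (284). Replicate 1 of ZT9 was high in Scd2 (292 CPM) and Hsp90b1 (177), and replicate 2 of ZT9 in Sgk2 (8.92) and Angptl4 (321). Replicate 2 of ZT21 was low in Slc27a1 (139 CPM), Sirt3 (69.1) and Srsf10 (65.2).

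Several genes differed more, or in another direction, between ZT21 and ZT9 than between another pair of times 12 h apart, by edgeR's test of the difference of the log2 differences. Against ZT18 minus ZT6 this difference was 2.58 for Arntl (adjusted p = 2.57e-04), 5.19 for Npas2 (2.19e-05), 2.25 for Cdkn1a (1.66e-04), 2.09 for Dtx4 (1.13e-06) and 1.66 for E2f2 (0.0414). It was 1.21 for Sh3pxd2a, a scaffold protein of podosomes (0.0168). It was negative for Dbp (-1.91, 0.00125), Ciart (-2.36, 8.42e-04), Nr1d2 (-1.38, 0.00191), Slc7a10 (-2.35, 0.0164), Lpl (-0.86, 0.00345) and Car3, a carbonic anhydrase (-0.55, 0.0332). Against ZT0 minus ZT12 it was 1.32 for Cdkn1a (0.0342) and -1.45 for Nr1d1 (0.0167). The pairs of times lie on different lanes, so lane and time of day cannot be told apart in these values. The extreme genes among them were picked for their ZT21 minus ZT9 difference, which by itself favours a larger one there.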

How the results depend on the processing

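Lane and time of day cannot be told apart in the direct contrast, and no alternative here removes that. Against 1492 genes called (699 higher, 793 lower), the counts were 966 (441, 525) with no filter, 701 (340, 361) from the 8 libraries alone, 546 (237, 309) at an adjusted p under 0.01, 37 (17, 20) against a 1.5-fold change, 3911 (1957, 1954) from a 24 h cosine, and 414 (143, 271) without the 4 libraries with muscle transcripts, an alternative chosen after seeing the data as were the marker covariates. With the muscle markers as a covariate 1645 (772, 873) were called, and with the macrophage markers 1517 (700, 817). Leaving out 1 mouse gave 953 to 1591 genes, 444 to 724 higher and 509 to 867 lower. Against 841 genes that differed from ZT18 minus ZT6, 505 did with no filter, 121 without the 4 libraries with muscle transcripts and 561 to 835 with 1 mouse left out. Against 220 that differed from ZT0 minus ZT12, 145 did with scaling by library size, 124 with no filter, 4 without the 4 libraries with muscle transcripts, and 98 (without replicate 1 of ZT21) to 263 (without replicate 3 of ZT9) with 1 mouse left out. The replicate numbers did not pair the mice (correlations 0.283, 0.452, -0.148 and -0.526 for the same numbers). With a replicate block 1377 genes were called over all libraries and 276 (128, 148) over the 8 alone. In the cosine with lane, the log2 difference changed sign for Car3 (0.02), Angptl4 (-0.66), Fasn (-0.00), Canx (0.05), Hsp90b1 (0.16, and 0.02 without lane), Pdia3 (0.18), Srsf3 (-0.14), Hnrnpk (0.07), Hnrnpdl (-0.24) and Per2 (0.40). Of 140 named genes, 136 of them called, 140 kept their direction and their side of the threshold in DESeq2, 138 with the muscle and 108 with the macrophage markers as a covariate, 54 in the cosine with lane and 56 without the 4 libraries with muscle transcripts.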

Other observations

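Of 22 genes of branched-chain amino acid breakdown 2 fell and none rose (9.09% called, against 9.62% of all tested genes). Ppm1k, the phosphatase that activates the branched-chain ketoacid dehydrogenase, was at 56.1 ± 2.33 CPM at ZT9 and 30.2 ± 3.78 CPM at ZT21 (SD, n = 4, edgeR adjusted p = 0.00212). Neither of the 2 calls was kept in the cosine with lane. Nrg4, a secreted factor of brown fat, differed by -0.59 ± 0.09 on the log2 scale (SE, n = 4 mice each, edgeR adjusted p = 1.20e-04). Ccng2, a cyclin among the FOXO targets, rose from 23.5 ± 3.01 to 46.8 ± 1.14 CPM (SD, n = 4, edgeR adjusted p = 9.67e-05). Among 40 tested mitochondrial carriers 4 fell and 1 rose (12.5% called, against 9.62% of all tested genes), and 1 of the 5 was called in every fit with 1 mouse left out. Slc25a22, a glutamate carrier, was at 166 ± 46.6 CPM and 99.9 ± 1.75 CPM (SD, n = 4, edgeR adjusted p = 0.00143, and 0.0556 without the 4 libraries with muscle transcripts). None of 19 interferon-stimulated genes passed in edgeR (against 9.62% of all tested genes), and 17 of them had a negative log2 difference, as had 7757 of all 15505 tested genes.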
